A study of Mus musculus with 12 samples.

Results

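The replication-dependent histone genes were followed in cultured adult neural stem/progenitor cells (aNSPCs) of the mouse, with and without added NAD+, under proliferating and under differentiation conditions. The members were all genes with a clustered histone symbol of the families H1, H2A, H2B, H3 or H4 and a value above 0 in at least 1 of the 12 samples. This gave 69 of the 31357 genes that were above 0 in some sample, or of the 55401 genes listed in all. The tables mix older and newer symbols: 9 members carry a Hist1 symbol and 60 a newer one (H1f, H2ac, H2bc, H3c or H4c), and both were taken in. Another 3 genes with such symbols, H2ac19, H1f7 and H1f8, were at 0 in all samples and stayed out, whereas the weakest member, H1f11-ps, was kept for an FPKM of 0.05 in a single sample. By family the members are 9 H1, 19 H2A, 17 H2B, 12 H3 and 12 H4 genes. The symbols do not mark replication dependence exactly. H1f0 and H1f10 are H1 variants that are made outside S phase too, and Hist1h2al, H2ac14, H2ac5-ps and H1f11-ps are annotated as pseudogenes. This leaves 63 other coding genes, and whether each of them is replication-dependent was not checked.

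The aNSPCs came from the forebrain of C57BL/6 mice aged 8 to 10 weeks and grew in a B27-supplemented medium with EGF and FGF-2, each at 20 ng/mL. The 4 groups of 3 samples are proliferating cells without NAD+ (pCtrl), proliferating cells with NAD+ (pNAD+), cells under differentiation conditions without NAD+ (DCtrl) and the same with NAD+ (DNAD+). NAD+ was given at 1 mM, and differentiation was induced with 1 µM retinoic acid and 5 µM forskolin. No source used here says how long the RNA-seq cultures were exposed or whether the libraries were poly(A)-selected. The 3 samples of a group are described as biological repeats, without saying whether they came from separate animals or from separate cultures of the same cells, and the p-values measure the spread between these samples. The groups follow the sample titles, since the treatment field of the labels calls every sample untreated.

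Most eukaryotic mRNAs end in a poly(A) tail, but the mRNAs of replication-dependent histone genes end just after a short stem-loop, which is bound by the protein SLBP. Most of these genes have no introns, lie in clusters, and are transcribed and processed when DNA is copied in S phase, so that new DNA can be wrapped. H2A, H2B, H3 and H4 form the nucleosome core, and H1 binds the DNA that enters and leaves it. Adult neural stem cells make histones while they divide, and the non-dividing neurons and astrocytes they give rise to depend more on the replication-independent variants.

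The stem-loop can be read in the annotated mRNA ends. A search for GGNNNTTTTNANNNCC with at least 5 of 6 stem bases paired found it in the annotated 3′ UTR of 40 members, against 86 of 21167 coding genes with a 3′ UTR in the tables, or 0.406%. All letters were searched on the transcript strand. The most frequent core, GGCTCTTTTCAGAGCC, was held by 23 members of the families H1, H2A, H2B and H3 and by no H4 gene. All 10 H4 genes with a stem-loop had other cores, of which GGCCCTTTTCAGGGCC was the most frequent with 6 genes. A description of this kind depends on the annotation, since 17 members have no annotated 3′ UTR. The following sites are shown for 6 members on which the comparisons turn, 5′ to 3′ in transcript orientation, with the stem-loop in capitals. They lie at chr13:23739507-23739532 (+, H1f2), chr13:23574890-23574915 (+, H2ac7), chr13:23571838-23571863 (+, H2bc8), chr13:23576239-23576264 (+, H3c4), chr13:22040961-22040986 (-, H4c9) and chr13:23531453-23531478 (+, H4c8) of mm10, each in the 3′ UTR, 24 to 31 bases after the stop codon.
H1f2: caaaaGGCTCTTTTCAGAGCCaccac
H2ac7: acaaaGGCTCTTTTCAGAGCCatcca
H2bc8: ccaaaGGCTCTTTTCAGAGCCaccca
H3c4: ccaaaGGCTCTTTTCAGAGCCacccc
H4c9: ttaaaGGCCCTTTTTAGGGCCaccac
H4c8: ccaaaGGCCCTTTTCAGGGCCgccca

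The promoters of the members also share short words. RefSeq promoter windows (GRCm38.p6, 250 bases before to 50 after the start) were found for 59 of the 69 members and searched on both strands. The TATA box word TATAAA was in 57.6% of the members' windows and in 15.7% of all 27025 windows. The word CCAAT, which NF-Y binds, was in 83.1% of the members' windows and in 41.1% of all. It was in all 15 H2A, all 15 H2B and all 10 H3 windows, but in 27.3% of the 11 H4 windows. The octamer ATTTGCAT, the site of OCT factors in H2B promoters, was in 6 H2A and 7 H2B windows and in no H1, H3 or H4 window, against 1.97% of all windows. A match is a run of letters and not a shown binding site. The 3 windows below are given because their genes were called lower upon differentiation, H3c8 and H4c9 in both comparisons and H2bc8 with NAD+, and because they carry different words, in capitals: H2bc8 (chr13:23571150-23571449, +) holds all 3 words, H3c8 (chr13:23535168-23535467, +) holds CCAAT 3 times, and H4c9 (chr13:22041313-22041612, -) holds only TATAAA, 137 bases before the start. In the window of H2bc8, ATTGG is CCAAT on the opposite strand.
H2bc8: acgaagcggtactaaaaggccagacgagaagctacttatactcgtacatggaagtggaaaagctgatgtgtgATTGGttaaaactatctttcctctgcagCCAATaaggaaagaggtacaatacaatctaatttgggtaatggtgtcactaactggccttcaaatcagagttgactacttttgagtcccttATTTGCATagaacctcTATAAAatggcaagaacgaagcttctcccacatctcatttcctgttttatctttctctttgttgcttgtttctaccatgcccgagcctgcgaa
H3c8: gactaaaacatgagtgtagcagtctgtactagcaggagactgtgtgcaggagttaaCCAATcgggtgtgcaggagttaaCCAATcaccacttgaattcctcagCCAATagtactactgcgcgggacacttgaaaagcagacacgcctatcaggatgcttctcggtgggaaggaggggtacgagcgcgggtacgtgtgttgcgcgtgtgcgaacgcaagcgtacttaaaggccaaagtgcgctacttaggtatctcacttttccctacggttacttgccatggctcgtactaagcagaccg
H4c9: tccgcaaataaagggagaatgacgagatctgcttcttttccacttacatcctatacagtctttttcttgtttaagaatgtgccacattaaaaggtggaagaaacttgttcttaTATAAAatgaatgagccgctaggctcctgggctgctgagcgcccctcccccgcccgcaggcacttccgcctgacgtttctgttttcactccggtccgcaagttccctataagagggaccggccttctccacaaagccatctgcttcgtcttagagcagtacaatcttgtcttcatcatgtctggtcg

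Levels are given in FPKM, fragments scaled to transcript length and to the mapped fragments of the library. The depth of the libraries is unknown. If they were poly(A)-selected, which is not stated, mRNAs without a poly(A) tail would read too low beside the others. The summed FPKM of all genes was 363330 in pCtrl replicate 1 and 308828 to 314683 in the other 5 proliferating libraries, and 324252 to 349649 under differentiation conditions. Replicate 1 of pCtrl stood apart in this sum. Among 64 members without H1f0 and H1f10 that had a single highest pCtrl value, 43 had it in this library. It also had the lowest level of the proliferation gene Mki67, at 19.8 FPKM against 39.67 and 39.98 in the other pCtrl samples. The lean of the members was not particular to it, since replicate 1 of pNAD+ held the single highest pNAD+ value for 34 of 67. The progenitor genes Sox2 and Nes averaged 225 and 68.8 FPKM in pCtrl, and of 5 astrocyte markers 3 rose from pCtrl to DCtrl (Gfap, from 19.0 to 595, Aqp4 and Slc1a2), S100b fell from 163 to 94.8, and Aldh1l1 was at 92.3 and 93.5 and was not called. The summed level of 5 neuron markers was 21.2 to 31.8 in pCtrl and 29.3 to 34.5 in DCtrl, with Stmn2 at 0.27 in DCtrl. The sums of 5 microglia markers and of 5 endothelial markers were at most 0.55 in any sample.

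A few genes made up most of the summed histone FPKM. Only 4 members, H1f0, H2bc4, H1f2 and H1f10, averaged 10 FPKM or more over the 12 samples, and they made up 72.7% of the summed FPKM of the members in pCtrl and 78.0% in DCtrl. Another 15 members averaged 1 to 10, and 50 averaged less than 1. Of the 69 members, 28 were above 0 in every sample. The median member stood at 0.483 FPKM in pCtrl, 0.607 in pNAD+, 0.113 in DCtrl and 0.137 in DNAD+. The 6 members whose annotated mRNA has a poly(A) signal (AATAAA or ATTAAA) in its last 40 bases and no stem-loop had a median of 3.04 FPKM in pCtrl, and 1.39 without H1f0 and H1f10, which are among them. The 10 members with both features had a median of 1.11, and the 30 with a stem-loop and no such signal had a median of 0.600. The classes were set after values were seen, and the difference was not tested. It cannot be told apart from an effect of poly(A) selection, since the selection is not stated.

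**Figure D1:**
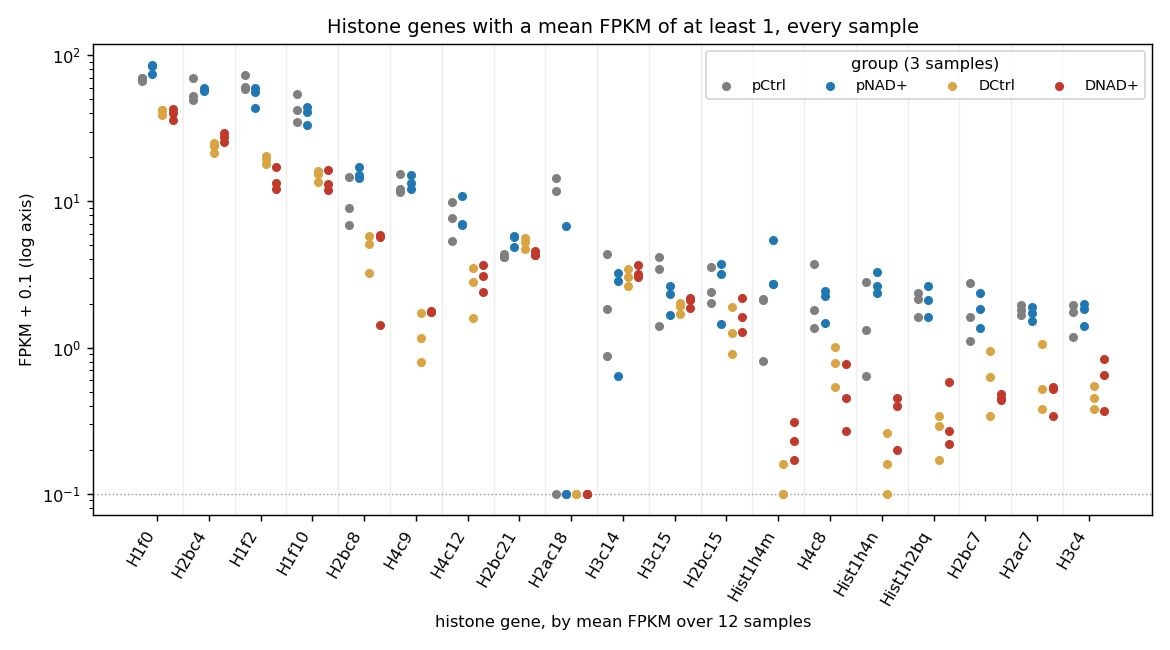
FPKM of the 19 histone genes with a mean of at least 1 over the 12 samples, plotted on a log axis after adding 0.1, 1 point per sample and 3 per group; the dotted line is a value of 0. The DCtrl and DNAD+ points lie below the pCtrl and pNAD+ points for most genes, while those of H2bc21, H3c14 and H3c15 lie among or near them.

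Sequence shared with other annotated transcripts limits some members. Of the 69 genes, 36 had fewer than 50% of their 50-base words unique among annotated transcripts, and for H2ac18, H3c14, H3c13 and H2bc18 no word was unique. Since only uniquely mapped reads were counted, the values of such members are uncertain. Overlapping transcripts count as sharing too, as with Gm20634, which overlaps H2ac18 and H3c14 on the same strand. A shared word is thus not always a second copy in the genome. H2ac18, an H2A gene of the Hist2 cluster, was at 0, 14.2 and 11.7 FPKM in pCtrl, at 6.66, 0 and 0 in pNAD+ and at 0 in all 6 differentiation samples, while its near-identical copy H2ac19 was at 0 throughout. The 3 samples of a group disagreed on whether it was present at all, so no direction is drawn from it. In addition, 27 members overlap another annotated gene, mostly an antisense or miRNA model, which the unstated strand setting leaves uncertain. H1f0 and H1f10 are among those with an antisense overlap, and H1f4 and H2bc6 overlap each other on the same strand.

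The question of the first comparison was how the histone genes differ between proliferating and differentiating cells. Upon differentiation most of them were lower. The summed FPKM of the members was 368, 288 and 305 in pCtrl and 126, 129 and 123 in DCtrl, which is 39.3% of the pCtrl mean. The groups did not overlap. Leaving out pCtrl replicate 1, the share was 42.4%, and without H1f0 and H1f10 it was 33.7%. With NAD+ the sum was 312, 329 and 324 in pNAD+ and 124, 123 and 124 in DNAD+, or 38.4% of the pNAD+ mean. These sums carry no test. Fewer dividing cells and less histone mRNA per cell cannot be told apart in bulk RNA, and the proliferating and differentiation samples were deposited in separate tables, so that condition and table cannot be told apart either. Between the conditions the summed level of 26 S-phase genes moved with the histone sums, from 378 to 485 FPKM in pCtrl down to 59.7 to 63.1 in DCtrl. Its part in the result was not tested. Within pCtrl, replicate 1 had the highest histone sum but the lowest level of most of the 26 S-phase genes, Mki67 and Mcm4 among them. Only Tyms of this list was highest there.

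By limma on log2(FPKM + 0.1), 59 members passed a minimum mean of 0.1 FPKM over the 12 samples. Of these, 36 fell from pCtrl to DCtrl at an adjusted p under 0.05, against 31.6% of all 19498 genes tested, and 1 rose, against 25% of all. The median log2 fold change was -1.49 for the members and -0.06 for all genes. A member can pass this minimum through its proliferating samples alone, in which case it had to be lower in the others. With no minimum, 35 of all 69 members were lower and 1 was higher, against 6105 and 5131 of all 31357 genes. The 3 values of each group did not overlap and were lower in DCtrl for 40 tested members, against 33.9% of all genes. From pNAD+ to DNAD+, 39 of the 59 fell, against 37.6% of all genes, and none rose, against 20.8% of all (limma; 0 members were higher at an unadjusted p under 0.05). The median was -1.56 for the members and -0.20 for all genes. Over all genes, 4050 were higher and 7336 lower with NAD+, and 4884 higher and 6164 lower without it. Under median-ratio scaling these became 5614 and 5388 with NAD+, and 5747 and 5347 without it, while 32 and 34 members were lower. On the deposited scale with no minimum, 36 of 69 were lower with NAD+ and 1 was higher, against 7188 and 4186 of all 31357 genes. Values that did not overlap and were lower in DNAD+ were seen for 41 members, against 41.7% of all genes. There were 31 members that fell in both comparisons, or 86.1% of those that fell without NAD+ and 79.5% of those that fell with it. The same share was not computed for all genes, so this overlap is not read as a trait of the histone genes. The 2 comparisons share no samples, but they share 1 estimate of the spread.

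Of the members that fell without NAD+, 8 were listed at 0 in every DCtrl sample, among them H3c8, H3c11 and Hist1h2ao, and no fold is given for these. The other 28 had a DCtrl mean between 1.26% and 59.5% of their pCtrl mean. Leaving out pCtrl replicate 1, 33 members fell, of which 31 were among the 36.

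**Figure D2:**
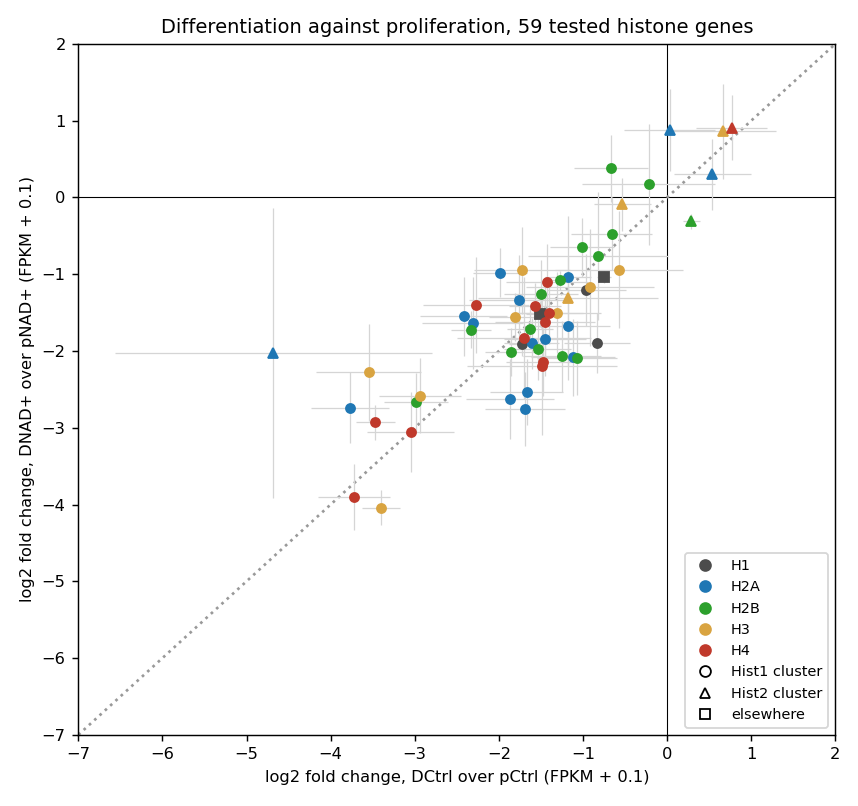
Log2 fold change from proliferation to differentiation for the 59 tested histone genes, without NAD+ on the horizontal axis and with NAD+ on the vertical axis, with standard errors as grey bars; colours give the family and shapes the genomic cluster, and the dotted line marks equal changes. Most Hist1 points lie below 0 on both axes, and the Hist2 triangles lie nearer to 0 apart from H2ac18 and H3c13.

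The H4 genes held the 3 largest falls without NAD+ among the called members with a mean of at least 1 FPKM. H4c9, the highest H4 gene, was at 15.3, 12.1 and 11.5 FPKM in pCtrl and at 0.7, 1.06 and 1.62 in DCtrl. All 3 DCtrl values were far below the pCtrl values, and the log2 fold change was -3.47 ± 0.23 (SE; limma, adjusted p = 3.71e-07). With NAD+ it went from 13.3, 12.1 and 15.0 in pNAD+ to 1.65, 1.69 and 1.66 in DNAD+, a log2 fold change of -2.93 ± 0.23 (adjusted p = 9.59e-07). Hist1h4m was at 2.02, 0.71 and 2.04 FPKM in pCtrl and at 0, 0.06 and 0 in DCtrl, and its log2 fold change of -3.72 ± 0.43 (limma, adjusted p = 2.49e-05) was the largest fall among the called members above that mean. Hist1h4n fell by 3.05 on the log2 scale in both comparisons, and H4c8 fell by 1.47 without and by 2.14 with NAD+. The fall of H4c8 without NAD+ missed the threshold without pCtrl replicate 1 (log2 fold change -1.06, limma adjusted p = 0.0608) and without DCtrl replicate 3 (-1.23, adjusted p = 0.0599). H4c12, the second H4 gene by level, kept more of its RNA, at 33.7% of pCtrl in DCtrl. In all, 8 of 12 H4 genes fell without NAD+ and 7 with it, beside 31.6% and 37.6% of all genes. The summed H4 level was 18.3% and 19.3% of that in proliferating cells. Hist1h4m and Hist1h4n have 10.2% and 14.4% unique words, so their values are uncertain.

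Among the H2B genes, H2bc4 was the highest, with 69.9, 49.5 and 52.0 FPKM in pCtrl and 21.2, 25.1 and 23.9 in DCtrl. The highest pCtrl value was in replicate 1, and no DCtrl value reached the lowest pCtrl value. Its log2 fold change was -1.27 ± 0.12 (limma, adjusted p = 5.36e-06), and with NAD+ it was -1.08 ± 0.12. H2bc8 was at 14.5, 6.75 and 8.85 FPKM in pCtrl and at 5.72, 5.01 and 3.14 in DCtrl, and this difference missed the threshold (log2 fold change -1.07 ± 0.48, limma adjusted p = 0.0809). The fit takes its spread from all 12 samples, and without DNAD+ replicate 1, which is outside this comparison, the same difference passed the test (limma, adjusted p = 0.00718). With NAD+ H2bc8 fell, from 15.0, 17.0 and 14.3 to 1.33, 5.57 and 5.8 (log2 fold change -2.09 ± 0.48, limma adjusted p = 0.00318). Whether the 2 falls of H2bc8 differ is the test of the NAD+ effect between conditions, and its adjusted p was 0.49. Hist1h2bq fell by 2.98 without and by 2.67 with NAD+ on the log2 scale, with 2.68% of its words unique. In this family 9 of 15 tested genes fell without NAD+ and 10 with it, beside 31.6% and 37.6% of all genes. The summed H2B level was 44.0% and 44.2% of that in proliferating cells.

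The H2A and H3 genes were low throughout. Of 16 tested H2A genes, 11 fell without NAD+ and 12 with it, beside 31.6% and 37.6% of all genes. Without the unstable H2ac18, the summed H2A level was 7.57 to 12.1 FPKM in pCtrl and 2.06 to 3.21 in DCtrl, or 29.6%, and with NAD+ it was 32.3%. With H2ac18 included these shares were 15.5% and 26.3%. H2ac7, a typical member, was at 1.71, 1.86 and 1.57 FPKM in pCtrl and at 0.42, 0.28 and 0.95 in DCtrl, with no overlap. Of 11 tested H3 genes, 5 fell in each comparison, or 45.5%, beside the same shares of all genes. With so few genes these counts are not read as a result about the H3 family. The summed H3 level was 46.9% and 55.8% of that in proliferating cells. Without pCtrl replicate 1, which had an H3 sum of 17.4 against 7.29 and 10.2 in the other pCtrl samples, the first share was 62.4%. H3c4 fell, from 1.85, 1.65 and 1.08 FPKM to 0.45, 0.35 and 0.28 (log2 fold change -1.81 ± 0.31, limma adjusted p = 0.000451). H3c14, the highest H3 gene, was at 4.26, 1.74 and 0.77 in pCtrl and at 3.37, 2.55 and 2.94 in DCtrl, so that the groups overlapped and no change was called (log2 fold change 0.67 ± 0.62).

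**Figure D3:**
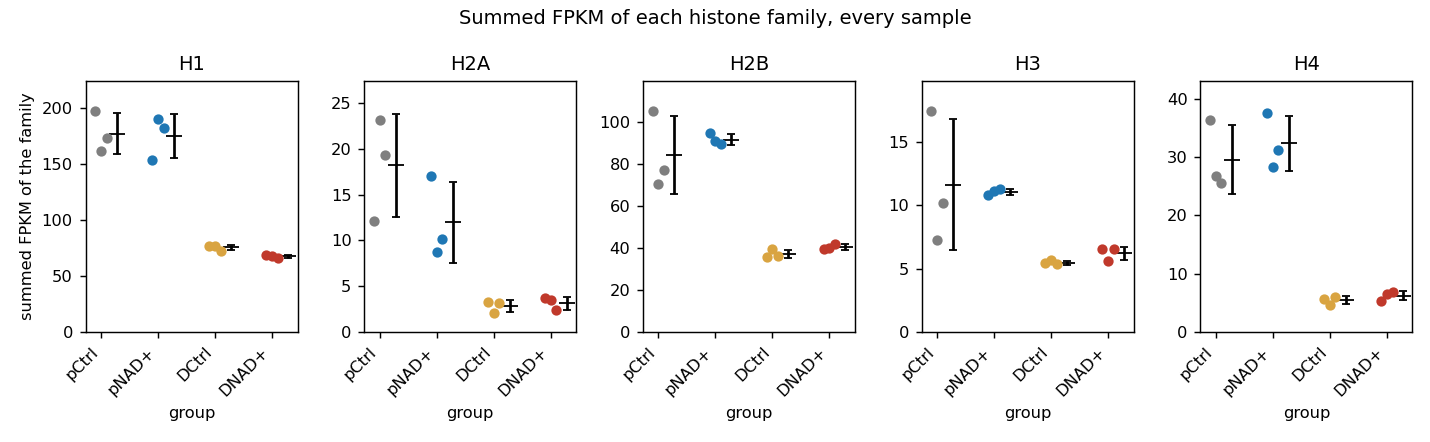
Summed FPKM of each histone family in every sample, with the mean and SD of 3 samples in black beside the points; each vertical axis starts at 0. All DCtrl and DNAD+ sums lie below all pCtrl and pNAD+ sums in each family, and the SD is largest in pCtrl for H2A, H2B, H3 and H4 and in pNAD+ for H1.

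Linker histones were led by H1f0, H1f2 and H1f10. H1f2, the highest replication-dependent H1 gene, was at 72.6, 58.6 and 60.1 FPKM in pCtrl and at 18.0, 19.2 and 20.2 in DCtrl, with no overlap. It fell by 1.73 ± 0.15 on the log2 scale without NAD+ (limma, adjusted p = 2.98e-06) and by 1.91 with it. H1f10 fell by 1.51 and by 1.52. H1f0 was at 69.1, 66.6 and 70.1 FPKM in pCtrl and at 42.0, 41.8 and 38.6 in DCtrl, which is 59.5% of the pCtrl mean and the smallest fall among the called members without NAD+. H1f4 and H1f5 averaged less than 1 FPKM, and both were called lower with NAD+ (log2 fold changes of -1.21 ± 0.47 and -1.90 ± 0.39) but not without it (-0.96 ± 0.47 and -0.83 ± 0.39). The difference between these falls was not significant for either gene, with adjusted p-values of 0.889 for H1f4 and 0.372 for H1f5 by limma's interaction term. Without NAD+, H1f4 was called when pCtrl replicate 1 was left out (-1.37, limma adjusted p = 0.0299), and H1f5 when 1 was added before the log (-0.22, limma adjusted p = 0.0491). H1f4 is the less certain, since its call with NAD+ had an adjusted p of 0.0452 (limma) and was lost under most other settings. H1f3, H1f1 and H1f6 did not reach the minimum level, with no value above 0.57 FPKM, and the pseudogene H1f11-ps was seen in 1 sample only. Of the summed level of H1 genes, 42.5% remained without NAD+ and 38.6% with it.

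The clusters differed in their counts. The Hist1 cluster on chromosome 13 holds 56 members. Its summed level was 164 to 231 FPKM in pCtrl and 55.6 to 60.8 in DCtrl, and 34 of its 49 tested members fell without NAD+ and 36 with it, with no gene higher. The Hist2 cluster on chromosome 3 holds 9 members, with a summed level of 13.4 to 23.3 FPKM in pCtrl and 10.6 to 12.2 in DCtrl. Of its 8 tested members none fell and 1 rose without NAD+, and 1 fell with NAD+ (limma; at an unadjusted p under 0.05, 1 was lower in each comparison). These 8 include H2ac18, H3c14 and H3c13, for which no word was unique among annotated transcripts. Over all genes, 31.6% fell without NAD+ and 37.6% with it, and 25% and 20.8% rose. The difference between the clusters was not tested.

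The member that rose was H2bc21, an H2B gene of the Hist2 cluster once named Hist2h2be, at chr3:96221119-96223738 of mm10. Its annotated mRNA has a 3′ UTR of 2192 bases with a poly(A) signal at its end and no stem-loop, and all of its 50-base words are unique. It was at 4.09, 4.06 and 4.26 FPKM in pCtrl and at 5.14, 4.63 and 5.53 in DCtrl. All DCtrl values were above all pCtrl values, and the log2 fold change was 0.29 ± 0.10 (limma, adjusted p = 0.0226). The call was lost without pCtrl replicate 2, DCtrl replicate 1 or DCtrl replicate 3, at adjusted p-values of 0.0564, 0.059 and 0.0924. With NAD+ the direction was the opposite: H2bc21 was at 4.77, 5.71 and 5.59 in pNAD+ and at 4.49, 4.22 and 4.2 in DNAD+, a log2 difference of -0.31 ± 0.10 (limma, adjusted p = 0.0176). That call was lost under median-ratio scaling, at a log2 fold change of -0.03, and without pNAD+ replicate 2, pNAD+ replicate 3 or DNAD+ replicate 3, at adjusted p-values of 0.0714, 0.0641 and 0.0521.

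The second question was what NAD+ changed within each condition. In proliferating cells no histone gene passed the test. The summed FPKM of the members was 368, 288 and 305 in pCtrl and 312, 329 and 324 in pNAD+, and the groups overlapped. None of 63 tested members was called by limma, against 0.145% of all 18597 genes. At an unadjusted p under 0.05 there were 5, all higher with NAD+, against 15.4% of all genes. The values of 6 members did not overlap between the groups, all higher with NAD+, against 24.1% of all genes in either direction. Both shares are below those of all genes, but most members are low. Of the 19 members with a mean of at least 1 FPKM over the 12 samples, 4 had an unadjusted p under 0.05 (limma). At a minimum of 1 FPKM, 1441 genes were higher and 824 lower at that p, of all 12626 tested. The members are thus not read as less affected than other genes. The median log2 fold change of the members was 0.02, and ranged from -0.13 to 0.19 when 1 sample was left out, with 0.07 for all genes.

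H2bc21, with the values given above, was 1.29-fold higher in pNAD+ than in pCtrl (log2 fold change 0.36 ± 0.11, limma adjusted p = 0.219). H1f0 was at 74.6, 84.9 and 83.9 FPKM in pNAD+, all above its pCtrl values, and the log2 fold change was 0.24 ± 0.08 (limma, adjusted p = 0.25). H2bc8 differed by 0.69 ± 0.26, with 1 pCtrl value inside the range of pNAD+. Hist1h4m and H3c8 completed the 5, with differences of 1.15 ± 0.46 and 0.64 ± 0.25. For a single gene the smallest 2-sided p of an exact permutation test of 3 against 3 samples is 0.10, which H2bc21, H1f0, Hist1h4m and H3c8 reached.

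Under differentiation conditions no histone gene passed the test either. The summed FPKM was 126, 129 and 123 in DCtrl and 124, 123 and 124 in DNAD+. None of 38 tested members was called by limma, against 6.92% of all 19611 genes, and 4 had an unadjusted p under 0.05, against 24.2% of all genes. Non-overlapping values were found for 5 members, 3 higher and 2 lower, against 30.7% of all genes. Here too the members' shares are below those of all genes, and most members are low. Of 17 tested members with a mean of at least 1 FPKM over the 12 samples, 1 was higher and 2 were lower at that unadjusted p (limma). At a minimum of 1 FPKM, 1190 genes were higher and 2651 lower, of all 12671 tested. H1f2 was at 12, 13.3 and 17.1 FPKM in DNAD+, below its DCtrl values, at a log2 difference of -0.45 ± 0.13 (limma, adjusted p = 0.101). Without DNAD+ replicate 3 the difference was -0.60 and passed the test (adjusted p = 0.0334). H2bc4 was at 29.2, 25.5 and 27.6 in DNAD+, above its DCtrl values (log2 fold change 0.23 ± 0.08, limma adjusted p = 0.159). H2ac8 was at 0.31, 0.31 and 0.09 FPKM in DCtrl and at 0.37, 0.56 and 0.65 in DNAD+, a log2 difference of 0.95 ± 0.38 (limma, adjusted p = 0.191). H2bc21 was lower with NAD+ by 0.24 ± 0.09 on the log2 scale (limma, adjusted p = 0.169).

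**Figure D4:**
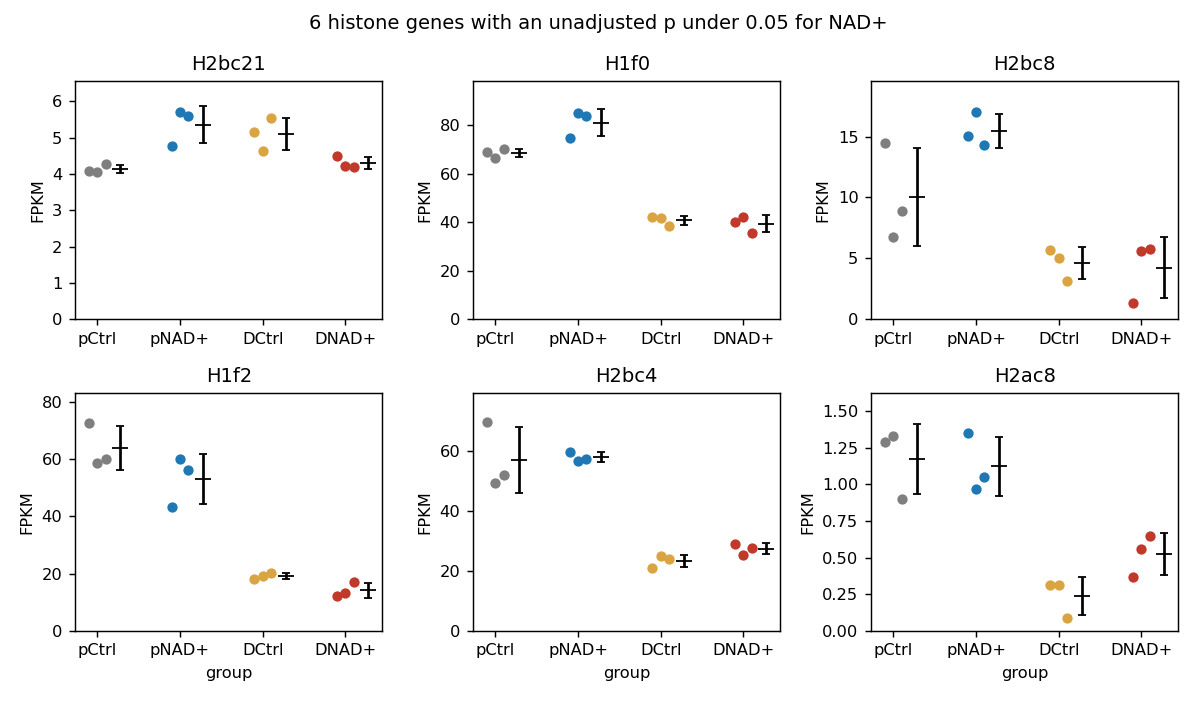
FPKM of 6 histone genes in every sample, with the mean and SD of 3 samples in black; each vertical axis starts at 0. H2bc21 is higher in pNAD+ than in pCtrl and lower in DNAD+ than in DCtrl with no overlap in either, and the other genes differ from Ctrl without overlap in at most 1 condition.

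The effects of NAD+ in the 2 conditions did not differ for any of the 59 tested members by limma's interaction term, against 0.467% of all 19498 genes called. At an unadjusted p under 0.05 there were 3 members, H2bc21, H1f0 and H2ac8, against 15.5% of all genes. For H2bc21 the NAD+ effect under differentiation conditions minus that in proliferating cells was -0.60 ± 0.14 on the log2 scale (limma, adjusted p = 0.0861). For H1f0 it was -0.29 ± 0.11 and for H2ac8 1.01 ± 0.45, with adjusted p-values of 0.242 and 0.316.

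Other genes of histone biology were described by 4 lists, for which the shares of all genes that fell, 31.6% without and 37.6% with NAD+, are the background. Among 11 genes listed as replication-independent histone variants, 10 fell without NAD+ and 11 with it, with medians of -0.94 and -1.04. These 11 include the members H1f0 and H1f10, and whether each is expressed apart from the cell cycle was not checked. Cenpa, the H3 variant of centromeres, averaged 8.89 FPKM in pCtrl and 0.383 in DCtrl (log2 fold change -4.23 ± 0.22), and H2ax, the H2A variant phosphorylated at DNA breaks, averaged 114 and 11.4 (-3.31 ± 0.16). H2az1 fell by 2.34. Macroh2a1, by contrast, was at 18.6 and 17.1 FPKM and was not called without NAD+ (limma, adjusted p = 0.0999).

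Of 16 tested genes for histone mRNA transcription and 3′ end processing, 7 fell and 1 rose without NAD+, and 12 fell with it. As shares of the list, 43.8% fell without NAD+ and 75% with it, beside 31.6% and 37.6% of all genes, and the median log2 fold changes were -0.33 and -0.62. Slbp, which encodes the protein that binds the stem-loop, was at 3.98, 5.49 and 5.02 FPKM in pCtrl and at 2.13, 2.47 and 1.81 in DCtrl, and the log2 fold change was -1.14 ± 0.17 (limma, adjusted p = 0.000166). Npat, the coactivator of histone gene transcription, was at 4.61, 6.9 and 6.32 and at 5.52, 5.61 and 5.26, with overlapping groups and a log2 fold change of -0.10 ± 0.15. Eri1, the exonuclease that trims histone mRNA ends, fell by 1.29, Cpsf2, a subunit of the cleavage complex, by 1.24, and Lsm11 of the U7 snRNP by 1.05, all without NAD+. The gene that rose was Tut4, a terminal uridylyltransferase (0.30 ± 0.12, limma adjusted p = 0.0479), and it was not called with no minimum level. Under differentiation conditions Cstf2, a factor of mRNA 3′ end cleavage, was the one gene of this list called for NAD+. It went from 10.7, 10.2 and 9.84 FPKM to 8.16, 8.36 and 7.99 (log2 fold change -0.32 ± 0.06, limma adjusted p = 0.0294). As a share of the list this is 6.25%, beside 6.92% of all genes.

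Of 15 histone chaperones and related factors, 13 fell without NAD+ and 14 with it. Asf1b, which hands H3 and H4 on at replication forks, fell by 4.39. Of the subunits of chromatin assembly factor 1, Chaf1b fell by 4.24 and Chaf1a fell by 2.32. Nasp, a chaperone of free H3 and H4, fell by 1.40. Ssrp1, a subunit of FACT, averaged 23.7 FPKM in DCtrl and 19.8 in DNAD+, a fall of 0.25 that just passed the test (limma, adjusted p = 0.046). It was the 1 call for NAD+ among 14 chaperones tested under differentiation conditions, or 7.14%, beside 6.92% of all genes. Of 26 S-phase genes, 25 fell without NAD+ and all 26 with it, with medians of -2.67 and -3.21. Mcm5 of the replicative helicase fell by 5.06, Rrm2 of ribonucleotide reductase by 4.62, Tk1 by 4.32 and Mki67 by 5.55. The histone genes thus had a median of -1.49 beside -2.67 for the S-phase genes, a difference that was not tested.

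**Figure D5:**
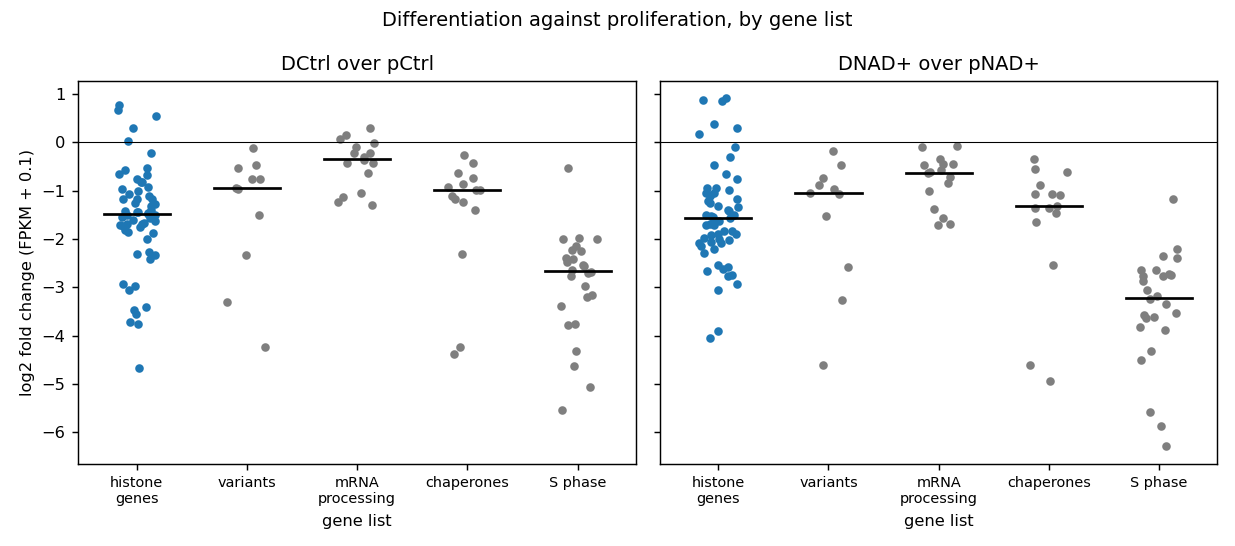
Log2 fold change from proliferation to differentiation of each tested gene, without NAD+ on the left and with NAD+ on the right, for the histone genes in blue and for 4 other lists in grey, with the list median as a black line. The medians of the histone genes are -1.49 and -1.56, and those of the S-phase genes are -2.67 and -3.21.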

How the data were processed

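RNA-seq of 12 aNSPC samples was analysed, 6 per condition. Per the authors, reads were mapped to mm10 with Hisat2 v2.0.5, uniquely mapped reads were kept and counted per gene with FeatureCounts v2.0.1, and the authors deposited FPKM values rounded to 0.01, in 1 table per condition. The program that made the FPKM, the strand setting and the depth are not given in the sources used here. limma 3.58.1 (R 4.3.3) was run with trend on log2(FPKM + 0.1), so that fold changes of low genes are understated, with a minimum mean of 0.1 FPKM and Benjamini-Hochberg adjustment over all genes tested. NAD+ comparisons used the 6 samples of 1 condition, and the others all 12. The fits were tested on simulated data. Symbols were matched through GENCODE M21 and RefSeq. Named genes were the 10 highest members, the highest of each family, up to 6 rises and 6 falls per comparison at a mean of at least 1 FPKM, the 3 smallest NAD+ p-values, all H1 genes, up to 4 called genes per list and comparison, Slbp and Npat. H2ac7, H3c8, H3c11, Hist1h2ao, H2ac8, Tut4, Macroh2a1, the printed promoters and the poly(A) signal window of 40 bases were chosen after their values were seen. Members and lists were chosen with earlier results of these data known. Alternatives were other pseudocounts and minimums, median-ratio scaling, a replicate block and leaving out each sample.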

Additional observations from a re-analysis of the deposited data

Results flagged for a closer look

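H2bc21 was picked out because its NAD+ effect ran in opposite directions in the 2 conditions. On the deposited scale all pNAD+ values lay above all pCtrl values, and all DNAD+ values lay below all DCtrl values. The median NAD+ effect over all genes was 0.07 in proliferating cells and -0.08 under differentiation conditions, and the median difference was -0.16. For H2bc21 the difference of the 2 effects was -0.60 on the log2 scale, with an adjusted p of 0.0861 by limma's interaction term. It did not pass the threshold of 0.05 under any of the settings tried.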

How the results depend on the processing

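The number of members lower upon differentiation stayed within 1.5 times the reported count under every setting run except a minimum mean of 1 FPKM. This minimum left 19 members, with 14 lower without NAD+ and 15 lower with NAD+, against 5472 and 6474 of all 12928 genes. Leaving out 1 sample gave 31 to 39 lower without NAD+ and 33 to 41 with it. The count called higher ranged from 0 to 1 in each of these 2 comparisons. With NAD+, 1 member was higher with no minimum (H2bc1), under median-ratio scaling (H4c14), without pNAD+ replicate 1 (H4c14) and without DNAD+ replicate 3 (H2ac21). Median log2 fold changes upon differentiation moved with the pseudocount, to -0.54 without and -0.50 with NAD+ when 1 was added, and to -2.04 and -2.39 when 0.01 was added. With NAD+ the median was -1.90 at a minimum of 1 FPKM. Leaving out 1 sample gave -1.65 to -1.15 without NAD+ and -1.71 to -1.50 with it. Median-ratio scaling moved the median of all genes with NAD+ from -0.20 to 0.05, and the members lower were then 32, all among the 39. For NAD+ under differentiation conditions the median was 0.03 with 1 added and 0.02 to 0.12 with 1 sample left out, and 0 to 1 members were called lower. In proliferating cells it was -0.13 to 0.19, with 0 called. The median difference between conditions was -0.23 to 0.18. The histone sum of DNAD+ was 104% of DCtrl under median-ratio scaling, which turns its direction, and 46.7% of pNAD+; without H1f0 it was 34.9% of pNAD+. The cause of these shifts was not tested. Over all pairs of groups, the deviations of same-numbered samples correlated at -0.0601 to 0.107. Between Ctrl and NAD+ within a condition they correlated at 0.0181 to 0.107 in proliferating cells and at 0.0291 to 0.0538 under differentiation conditions. Such small values cannot settle whether same-numbered samples share a culture. With a replicate block 36 members were lower without NAD+ and 39 with it. Other sets were chosen after seeing the data. Of the 67 members without H1f0 and H1f10, 57 were tested, and 34 and 37 were lower without and with NAD+. Of the 33 with at least 50% unique words, 26 were tested, and 17 and 19 were lower. Of the 9 with older symbols, 8 were tested, and 5 and 7 were lower. Over all genes tested 31.6% and 37.6% were lower. Unknown depth and FPKM rounded to 0.01 limit the 50 members below 1 FPKM.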
